A study of Mus musculus with 6 samples.

Results

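Integrins are the cell surface receptors that hold cells to the surrounding matrix or to other cells, and laminins are secreted proteins of the basement membrane to which several integrins bind. The genes described here are the 35 chains of these 2 families on a list of symbols, 25 integrins (17 α and 8 β chains) and 10 laminins (5 α, 3 β and 2 γ chains), taken by name with no threshold on their values. All 35 had a row among the 37991 gene identifiers in the table of counts from purified bone endothelial cells (BECs), the cells lining the blood vessels of bone.

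An integrin works as a pair of 1 α and 1 β chain, and the pairing sets both the ligand and, often, the cell type. The β2 pairs are made by leukocytes, with αM (CD11b) on neutrophils, monocytes and macrophages, αX (CD11c) best known from dendritic cells and macrophages, αD (CD11d) from tissue macrophages and αL (CD11a) on most leukocytes. Endothelial cells use β1 pairs to bind fibronectin, collagen and laminin, and αV pairs to bind vitronectin and other RGD ligands. A laminin is a trimer of 1 α, 1 β and 1 γ chain, and α4 and α5 are the α chains typical of vessel walls.

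The samples were BECs from 12-week-old mice labelled as the c57/Bl6 strain (C57BL/6J for wildtype mice in the methods), 3 libraries from females and 3 from males, with no other treatment or genotype given. The only comparison the labels allow is that of the sexes, and the question behind it was whether the endothelium of bone differs between females and males. Cells were taken by their expression of endomucin, a surface protein of bone capillaries and veins. The labels name the tibia as the tissue and sorting into lysis buffer, whereas the methods name tibiae and femurs and endomucin-coated beads, and the methods state that the 3 samples of best RNA quality in each set went into libraries. The authors counted reads per gene, with 47678806 to 58325745 counts in the female libraries and 49236654 to 50406097 in the male libraries. Levels are given as CPM, counts brought to a common library size with TMM scaling. In CPM of total counts, before that scaling, 3 counts, taken as the lowest level a library could show, came to between 0.0514 and 0.0629. Amplified reads are not independent molecules, so this floor describes counting error alone. Differences are given as log2 fold changes of males over females with their standard error (SE).

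The endothelial label was checked with 12 marker genes, and none of them was at 0 in any library. Of these, 4 were lower in every male than in every female (7.29% of all genes tested). Emcn, the gene of the endomucin used for selection, had the lowest mean of the 12, with 8.68, 5.35 and 10.5 CPM in females and 4.21, 3.09 and 6.73 CPM in males. The summed level of the 12 genes was 442, 329 and 449.7 CPM in female replicates 1, 2 and 3 and 258, 194 and 281 CPM in male replicates 1, 2 and 3. Per kilobase of exon, the endothelial sum was 24.7 to 71.3 over the 6 libraries, below the sums of neutrophil (14923 to 36131), erythroid (3363 to 7568), B cell (1427 to 1677), monocyte and macrophage (860.1 to 1328) and stromal markers (151 to 407), and the lists differ in their number of genes. T and NK cell markers (20.0 to 33.4) and megakaryocyte markers (14.8 to 91.8) lay in the range of the endothelial sum or somewhat beyond it. In CPM, the sum of 12 neutrophil markers was 19109.7 to 23373 CPM in females and 32511 to 44298 CPM in males, with 10 of the 12 higher in every male than in every female (7.25% of all genes), and that of 9 monocyte and macrophage markers was 3164 to 3594 CPM in females and 2403 to 3080 CPM in males, with 5 of the 9 lower in every male and 1 higher. Sums were 5573 to 8645 CPM in females and 8898 to 12528 CPM in males for 6 erythroid markers, and the sexes overlapped for B cell markers (2669 to 3038 and 2623 to 3072 CPM) and T and NK cell markers (31.4 to 40.3 and 30.8 to 45.5 CPM). None of these markers was at 0 in a library, and none was called in edgeR's test at an adjusted p under 0.05, but at an unadjusted p under 0.05 in edgeR 9 of the 12 neutrophil markers and 1 monocyte and macrophage marker (Ly6c2) were higher in males (5.03% of all genes) and 10 of the 12 endothelial and 6 of the 9 monocyte and macrophage markers were lower (4.76% of all genes). At the same threshold the erythroid markers Alas2, Hbb-bt and Hbb-bs were higher in males, and Epor and the stromal markers Lepr, Adipoq, Kitl and Sp7 were lower. No B cell, T and NK cell or megakaryocyte marker passed it. DESeq2 called 8 neutrophil markers higher in males (1.31% of all genes), and 5 endothelial markers, 1 monocyte and macrophage marker (Csf1r) and 1 stromal marker (Adipoq) lower (0.771% of all genes). The libraries therefore held transcripts typical of blood and stromal cells beside those of endothelium. In such bulk RNA, fewer cells of a type and less RNA per cell cannot be told apart, and the part of the cell mixture in the results below was not tested beyond the values set beside them.

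No integrin or laminin gene passed edgeR's test between the sexes, DESeq2 called Lama1 and Itgad lower in males, and most members had somewhat lower values in males. Of the 33 members with enough counts to test, 24 had a log2 fold change of males over females below 0 and 9 above 0, so 72.7% lay on the lower side against 50.2% of all genes tested. Their median log2 fold change was -0.28, against -0.00125 over all genes. The members with the smallest unadjusted p in edgeR were Lama1, Itgad, Itgb1, Itga9 and Itgb7 on the lower side and Itgam, which encodes CD11b, on the higher side, and by log2 fold change Lama1, Lama3, Itgae and Itga3 lay lowest. Itgb8 and Lamc3 were not tested, their levels being 0 to 0.203 CPM over the 6 libraries.

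By edgeR's quasi-likelihood F test, adjusted by Benjamini and Hochberg's method over the 19480 genes tested, 0 members were called higher and 0 lower in males at an adjusted p under 0.05, where 0.0257% and 0.0154% of all genes were called in these directions. The lowest adjusted p of a member in edgeR was 0.0547, for Lama1. At an unadjusted p under 0.05 in edgeR, 1 member was higher (5.03% of all genes) and 9 were lower (4.76% of all genes). Females and males were fully separated for 2 members higher in males (7.25% of all genes) and 11 lower in males (7.29% of all genes). These were Itgam and Itgb2 on the higher side, and Lama1, Lama3, Itgad, Itgae, Itgax, Itgb7, Itgb1, Itgb5, Itga9, Itga6 and Itga3 on the lower side. DESeq2's Wald test gave 31 members an adjusted p and called 0 higher (1.31% of all genes) and 2 lower (0.771% of all genes), Itgad and Lama1. With total counts alone as the scaling, the members without overlap were 1 and 8, Itgb2, Itga9, Itgax and Itga6 being lost. The share of all genes without overlap at that scaling is not given here, so these 2 counts cannot be set against it. Leaving out 1 library at a time, the members' median lay between -0.37 (without male replicate 1) and -0.19 (without male replicate 2). Nothing in the labels says whether a library is 1 animal or several, so these p-values measure the spread between libraries.

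**Figure D1:**
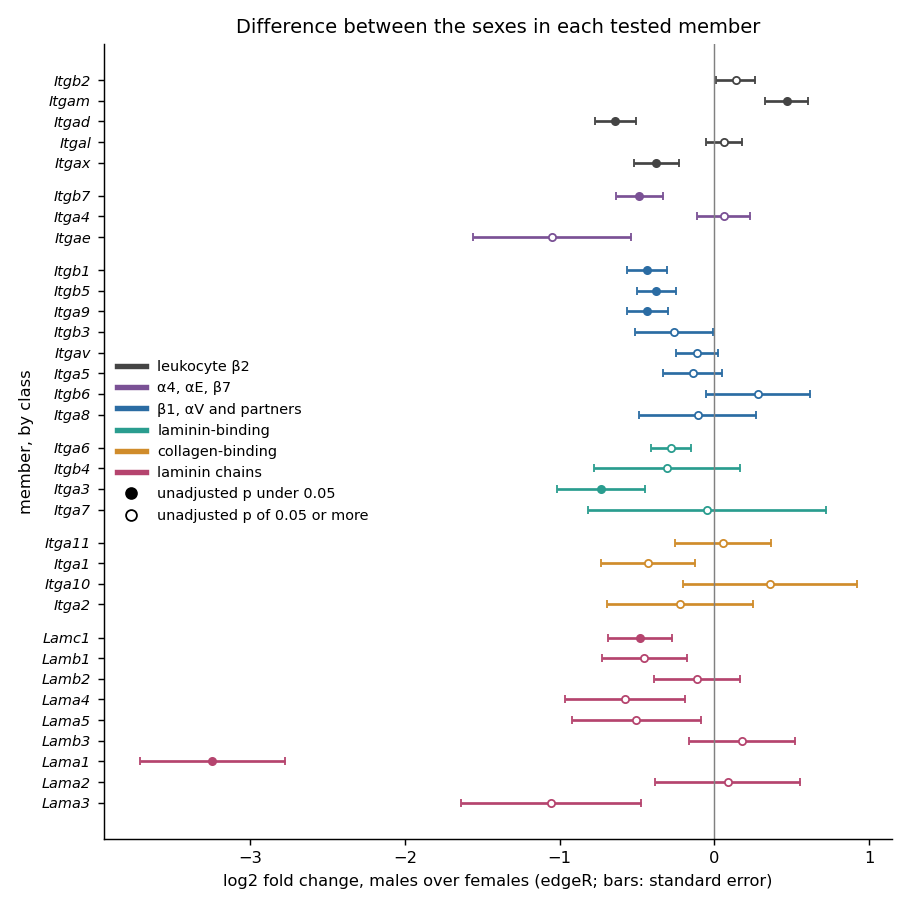
Log2 fold change of males over females for the 33 tested members (x axis) by class (y axis), with points for edgeR's estimate, bars for its standard error and filled points for an unadjusted p under 0.05. Most points lie left of 0, Lama1 lies farthest left at -3.25, and of the 10 filled points Itgam alone lies right of 0.

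Per length, the leukocyte chains Itgb2, Itgam, Itgb7 and Itgad had the highest mean levels of the members. On the scale of CPM per kilobase of exon, used where members are compared with each other, Itgb2, the common β2 chain, had the highest mean level over the 6 libraries at 121, and its lowest library (109) lay above the highest of any other member. After it came Itgam (44.2), Itgb7 (34.9), Itgad (33.7), Itgb1 (22.2), Itgal (18.4) and Itgb5 (16.9), each overlapping its neighbour in the range of the libraries. A gap then set these apart from Itga4 (6.75), Itga9 (5.57), Itgb3 (5.51), Itgax (4.63) and Itgav (3.04), which again overlapped one with the next. The laminin of highest level, Lamc1, followed at 2.30, with Itga6 at 2.13, Itga5 at 1.59, Lamb1 at 1.39 and Lamb2 at 1.12. Below another gap, the remaining 18 members had means from 0.00441 (Itgb8) to 0.529 (Itgb6).

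The 5 genes of the β2 family held 62.7 to 65.3% of the summed level per length of all members in females and 68.5 to 72.7% in males, and the laminins held 1.37 to 2.42% and 1.18 to 1.79%. Shares of the β2 family did not overlap between the sexes, and those of the laminins did. With lengths from the longest transcript instead of all exons, the first 10 members were the same genes, but Itgad came before Itgb7, Itgb5 before Itgal and Itgb3 before Itga9.

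**Figure D2:**
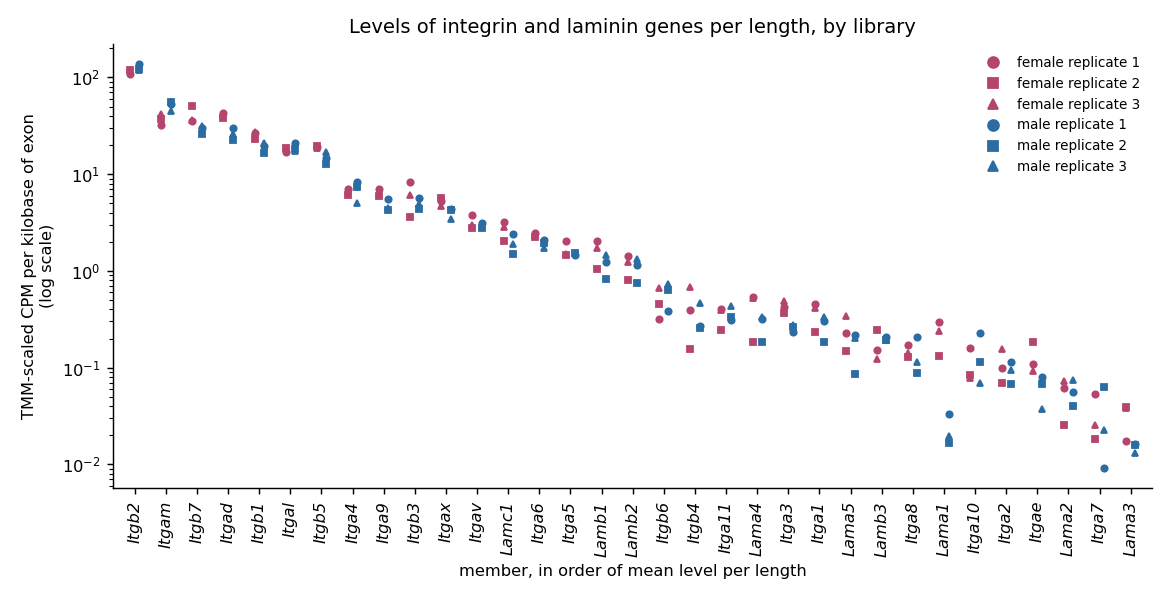
TMM-scaled CPM per kilobase of exon (y axis, log scale) of the 33 tested members in order of their mean (x axis), with 1 symbol for each of the 3 female and 3 male libraries. Itgb2 stands alone at the top, 6 members lie between 12.8 and 55.6, and the male libraries of Lama1 lie below all of its female libraries.

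Among the leukocyte β2 chains, Itgam lay higher in males and Itgad and Itgax lay lower, while their shared partner Itgb2 and the α chain Itgal differed little. Itgb2 had 353, 388 and 376 CPM in female replicates 1, 2 and 3 and 444, 395 and 389 CPM in male replicates 1, 2 and 3, just without overlap. The log2 fold change of Itgb2 was 0.14 (SE 0.124, adjusted p = 0.763 in edgeR), and 0.07 without male replicate 1. Itgam (ENSMUSG00000030786) had 165, 189.6 and 215 CPM in females and 271, 285 and 232 CPM in males, so every male library lay above every female library. Its mean was 1.38 times as high in males, a log2 fold change of 0.47 (SE 0.141, unadjusted p = 0.00746, adjusted p = 0.305 in edgeR). Most of the exons of Itgam (67.4%) also belong to the gene model Gm49368 on the same strand, which was not in the table of counts. Itgal, part of the receptor that leukocytes use to bind ICAM-1, had 112, 124 and 121 CPM in females and 138, 121 and 113 CPM in males, and its groups overlapped.

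Itgad (ENSMUSG00000070369) showed the opposite order to Itgam. It had 195, 173 and 188 CPM in females and 136, 102 and 118 CPM in males, with a clear space between the lowest female and the highest male. The means were 185 ± 11.3 CPM and 119 ± 17.0 CPM (SD, n = 3 each). This was a log2 fold change of -0.64 (SE 0.133, unadjusted p = 0.000647, adjusted p = 0.117 in edgeR), and DESeq2 called it at an adjusted p of 0.00299. Over the 13 alternatives its adjusted p in edgeR or DESeq2 ranged from 0.00299 to 0.567, and its log2 fold change from -0.75 to -0.54. Itgax had 25.9, 27.6 and 22.6 CPM in females and 21.4, 20.7 and 16.6 CPM in males, a smaller step in the same direction as Itgad. Its log2 fold change was -0.38 (SE 0.147, adjusted p = 0.434 in edgeR).

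Itgam, Itgax and Itgad are neighbours on chromosome 7, on the plus strand of GRCm39 at chr7:127661808-127717753, chr7:127728668-127749829 and chr7:127753548-127822988. Between the transcripts of Itgad and Itgax, 7 runs of 40 or more identical bases, 718 bases in all and all coding, could place reads of one gene on the other, depending on how reads with several matches were counted. Of all stretches of 40 bases, 11.7% of those of Itgad occurred in Itgax and 10.97% of those of Itgax in Itgad, and of stretches of 100 bases 3.89% and 3.65%. No stretch of 40 bases of Itgam occurred in another member. The longest pair of runs, printed below 5′ to 3′ because they mark where counts of Itgad and Itgax are least separable, span exons 11 to 13 and exons 27 to 28 of both genes. On GRCm39 they lie at chr7:127788512-127788961 and chr7:127802839-127803123 in Itgad and at chr7:127734784-127735234 and chr7:127747743-127748014 in Itgax, introns included, and the bases printed are those of the joined exons.
Itgad and Itgax, 188 shared bases of exons 11 to 13: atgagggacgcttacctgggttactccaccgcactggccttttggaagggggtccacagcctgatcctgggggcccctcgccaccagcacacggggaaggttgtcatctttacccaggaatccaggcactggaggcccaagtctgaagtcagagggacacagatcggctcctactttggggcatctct
Itgad and Itgax, 146 shared bases of exons 27 to 28: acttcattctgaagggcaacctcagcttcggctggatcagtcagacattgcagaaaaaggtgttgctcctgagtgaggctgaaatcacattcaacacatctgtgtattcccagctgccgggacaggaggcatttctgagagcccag

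Set against the cell markers, Itgam, like Itgb2, had the same order of the sexes as the sum of the neutrophil markers, which was 21662 ± 2253 CPM in females and 38759 ± 5925 CPM in males (SD, n = 3 each). S100a8 and S100a9 had the highest means in that sum, 7572 and 11180 CPM. Elane and Mpo overlapped between the sexes, and the mean of Mpo was 276 CPM in females and 181 CPM in males. Itgad and Itgax had the order of the monocyte and macrophage sum, which was 3316 ± 241 CPM in females and 2644 ± 378 CPM in males (SD, n = 3 each). Among the single markers of that list, Adgre1 (F4/80) and Csf1r, the receptor of macrophage colony-stimulating factor, lay lower in every male than in every female, as did Cd68, C1qa and C1qc. Ly6c2, a monocyte marker, lay higher in every male, and C1qb, Ccr2 and F13a1 overlapped between the sexes. The part of the marker lists in the levels of Itgam, Itgad and Itgax was not tested.

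Ratios between chains of the β2 family parted the libraries by sex, but none passed the test given below. The ratio of Itgam to Itgad per kilobase, chosen after its values were seen, was 0.746, 0.969 and 1.01 in females and 1.76, 2.47 and 1.72 in males. Thus the 2 chains stood near 1 to 1 in females, and Itgam led in every male library. Per kilobase of Itgb2, Itgam stood at 0.323 ± 0.0351 in females and 0.407 ± 0.0435 in males (SD, n = 3 each), and Itgad, a ratio also added after the values were seen, at 0.359 ± 0.0385 and 0.208 ± 0.0197. Itgax over Itgb2 was 0.0456 ± 0.00470 and 0.0319 ± 0.00327, and Itgal over Itgb2 was 0.157 ± 0.000937 and 0.149 ± 0.00478. None of these 5 ratios overlapped between the sexes, but the step in Itgal over Itgb2 was small. For Itgam over Itgad, Itgad over Itgb2 and Itgax over Itgb2 this follows from the chains themselves, which parted the sexes in opposite directions. An exact permutation test of each log2 ratio gave p = 0.1, the smallest possible with 3 libraries a sex. After Benjamini-Hochberg adjustment over all chain ratios computed it was 0.243. Such ratios do not depend on the scaling of the libraries.

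**Figure D3:**
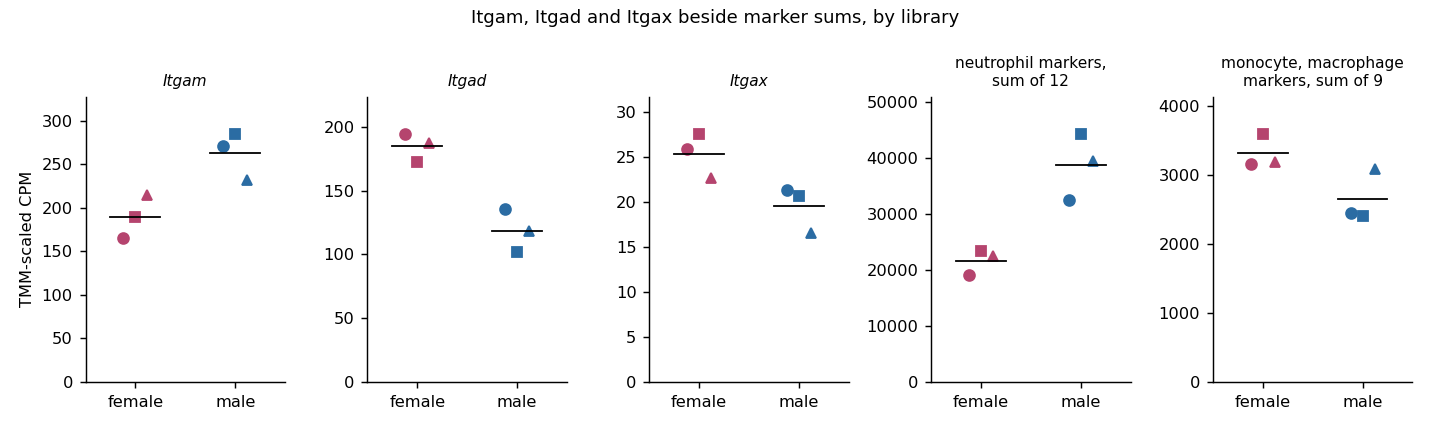
TMM-scaled CPM (y axes, each from 0) of Itgam, Itgad, Itgax and the sums of 12 neutrophil and 9 monocyte and macrophage markers in the 3 female and 3 male libraries, with circles, squares and triangles for replicates 1, 2 and 3 and lines for the means. Itgam and the neutrophil sum lie higher in every male, and Itgad, Itgax and the monocyte and macrophage sum lie lower in every male.

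Of the other leukocyte chains, Itgb7 lay lower in males and Itga4 did not part the sexes. Itgb7 pairs with α4 to bind MAdCAM-1 on mucosal vessels or with αE to bind E-cadherin. It had 103, 145 and 106 CPM in females and 86.5, 76.2 and 90.6 CPM in males, with female replicate 2 well above the rest. For Itgb7 the log2 fold change was -0.48 (SE 0.150, unadjusted p = 0.00878, adjusted p = 0.323 in edgeR), and -0.31 without female replicate 2. Itga4, which also pairs with β1 to bind VCAM-1, had 117, 103 and 112 CPM in females and 137, 124 and 83.9 CPM in males, and male replicate 3 was the lowest of all while the other males were the highest. About 20.8% of its exons overlap the antisense gene Cerkl, which had 856 counts over the libraries against 35402 of Itga4. Itgae was low, at 0.575 to 1.14 CPM in females and 0.232 to 0.494 CPM in males, without overlap and with a log2 fold change of -1.05 (SE 0.512, adjusted p = 0.545 in edgeR). The ratio of Itga4 to Itgb7 overlapped between the sexes, from 0.123 to 0.197 in females and from 0.161 to 0.283 in males.

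Of the chains that bind fibronectin and RGD ligands, the β chains Itgb1 and Itgb5 and the α chain Itga9 had lower values in every male library. In this class 7 of 8 tested members had a log2 fold change below 0 (50.2% of all genes), with a median of -0.20, but Itgb3, Itgav, Itga5 and Itga8 turned sign when 1 library was left out. The 3 with an unadjusted p under 0.05 in edgeR (4.76% of all genes, lower in males) were Itgb1, Itgb5 and Itga9, and these kept their direction. Itgb1, the β chain with the most partners, had 160.2, 137 and 161 CPM in females and 115, 99.2 and 124 CPM in males. Itgb5, a partner of αV, had 135, 137 and 133 CPM in females and 104, 90.5 and 118 CPM in males. In both genes every male library lay below every female library, and the females of Itgb5 were close to each other. The log2 fold changes were -0.43 for Itgb1 (SE 0.128, unadjusted p = 0.00675, adjusted p = 0.298 in edgeR) and -0.38 for Itgb5 (SE 0.124, unadjusted p = 0.0125, adjusted p = 0.351 in edgeR). Itga9, a β1 partner that binds tenascin-C and VCAM-1, had 53.9, 45.8 and 48.7 CPM in females and 42.7, 32.9 and 34.1 CPM in males. It too did not overlap, with a log2 fold change of -0.43 (SE 0.133, unadjusted p = 0.00831, adjusted p = 0.315 in edgeR).

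The other members of this class overlapped between the sexes. Itgav had 46.1, 34.2 and 36.6 CPM in females and 38.5, 34.4 and 35.3 CPM in males, with female replicate 1 above the rest. Itgb3, which pairs with αV on endothelium and osteoclasts and with αIIb on platelets, had 54.8, 24.1 and 40.3 CPM in females and 37.9, 28.9 and 32.8 CPM in males. The wide spread of Itgb3 among females went with the sum of 5 megakaryocyte markers, which was 151, 35.0 and 90.9 CPM in the same female libraries and 59.2, 26.0 and 79.5 CPM in the male libraries, and the part of these cells in Itgb3 was not tested. Itga5, the fibronectin receptor α chain, had 10.8, 7.78 and 7.97 CPM in females and 7.82, 8.20 and 8.10 CPM in males. Itgb6, an αV partner typical of epithelia, had 2.32, 3.35 and 4.84 CPM in females and 2.83, 4.61 and 5.33 CPM in males. Itga8, typical of mesenchymal cells, had 1.83, 1.38 and 1.53 CPM in females and 2.22, 0.954 and 1.22 CPM in males. Log2 fold changes of these 5 genes lay between -0.26 (Itgb3, SE 0.251) and 0.28 (Itgb6, SE 0.336), within about 1 SE of 0 in each, and that of Itgb6 ranged from 0.06 (without female replicate 1) to 0.59 (without female replicate 3). Per kilobase, the ratios of Itga5, Itga6, Itga9 and Itga4 to Itgb1 and of Itgav to Itgb3 and to Itgb5 overlapped between the sexes, the last of these being added after the values were seen.

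The 4 laminin-binding integrin chains had log2 fold changes from -0.73 to -0.05, of which that of Itgb4 turned to 0.26 without female replicate 3, and 1 of them, Itga3, had an unadjusted p under 0.05 in edgeR (4.76% of all genes, lower in males). Itga6, which pairs with β1 or β4, had 28.3, 25.2 and 26.5 CPM in females and 23.8, 22.1 and 19.8 CPM in males, just without overlap. Its log2 fold change was -0.28 (SE 0.128, adjusted p = 0.512 in edgeR). Itga3, also a β1 partner, had 2.45, 2.16 and 2.85 CPM in females and 1.35, 1.54 and 1.60 CPM in males, so that the lowest female lay well above the highest male. Its log2 fold change was -0.73 (SE 0.284, unadjusted p = 0.0272, adjusted p = 0.430 in edgeR), at 71 to 154 counts a library. Itgb4, the β chain of hemidesmosomes, had 2.83, 1.14 and 4.88 CPM in females and 1.96, 1.85 and 3.33 CPM in males and overlapped. Itgb4 shares 14.9% of its exons with the antisense gene Galk1, which had 7566 counts over the libraries against 819, and without a stated strand setting reads of the pair cannot be told apart. Itga7, a laminin receptor of muscle, stood at 0.0759 to 0.528 CPM.

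The 4 collagen-binding α chains overlapped between the sexes in each case. Itga1 had 9.78, 4.99 and 8.88 CPM in females and 6.51, 3.92 and 7.17 CPM in males, with replicate 2 the lowest in each sex. It shares 10.2% of its exons with the antisense gene Mocs2, which had 9986 counts against 2172, and Itga2 6.22% with the same gene, against 222. Itga11, a chain of fibroblasts and osteogenic cells, had 2.50, 1.51 and 2.43 CPM in females and 1.94, 2.07 and 2.699 CPM in males. Itga10 and Itga2 lay between 0.358 and 1.20 CPM. Log2 fold changes in this class ranged from -0.43 (Itga1, SE 0.302) to 0.36 (Itga10, SE 0.562), and the lowest adjusted p in edgeR was 0.691. Itga1 moved to -0.67 without female replicate 2 and -0.21 without male replicate 2.

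Of the laminin chains, Lama1 stood apart by the size of its difference between the sexes. Lama1 (ENSMUSG00000032796), on chromosome 17 at chr17:68004223-68129642 of GRCm39, encodes the α1 chain best known from embryonic and kidney basement membranes. It had 182, 67 and 109 counts in female replicates 1, 2 and 3 and 17, 8 and 9 counts in male replicates 1, 2 and 3, or 2.89, 1.27 and 2.32 CPM against 0.323, 0.162 and 0.190 CPM. Every female library was thus at least several times as high as every male library, although the gene was low throughout and the male values rest on few counts. The means were 2.16 ± 0.825 CPM and 0.225 ± 0.0858 CPM (SD, n = 3 each), and the fitted level was 9.48 times as high in females. Its log2 fold change was -3.25 (SE 0.470, adjusted p = 0.0547 in edgeR), and DESeq2 called it at an adjusted p of 3.37e-07. Without male replicate 3 it passed in edgeR at an adjusted p of 0.0455. Across the 12 alternatives in which it could be tested, the adjusted p in edgeR or DESeq2 ranged from 3.37e-07 to 0.275 and the log2 fold change from -3.60 to -2.97. No other gene of the annotation overlaps its exons. The ratio of Lama1 to Lamc1 per kilobase, added after the values were seen, was 0.0940, 0.0641 and 0.0842 in females and 0.0139, 0.0113 and 0.0103 in males, so Lama1 was also lower beside its γ1 partner.

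Per length, the laminins of highest level were Lamc1, Lamb1 and Lamb2, the γ1, β1 and β2 chains of most trimers. Lamc1 had 35.9, 23.0 and 32.1 CPM in females and 27.0, 16.7 and 21.5 CPM in males. Lamb1 had 22.1, 11.2 and 18.5 CPM in females and 13.3, 8.75 and 15.8 CPM in males. Lamb2 had 8.68, 4.88 and 7.60 CPM in females and 7.005, 4.61 and 7.99 CPM in males. The sexes overlapped in all of them, and replicate 2 was the lowest library of its sex each time. Log2 fold changes were -0.48 for Lamc1 (SE 0.205, unadjusted p = 0.0403, adjusted p = 0.477 in edgeR), -0.45 for Lamb1 (SE 0.272) and -0.11 for Lamb2 (SE 0.276). Lamb1 moved to -0.69 without female replicate 2 and -0.23 without female replicate 1, and 2.82% of its exons overlap the antisense gene Dld (19917 counts against 4731).

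Lama4, the α chain laid down by endothelium, had 8.43, 2.91 and 8.16 CPM in females and 4.97, 2.92 and 5.19 CPM in males. Lama5, the other vascular α chain, had 2.64, 1.68 and 3.92 CPM in females and 2.51, 0.995 and 2.30 CPM in males. Both overlapped, again with replicate 2 lowest in each sex. Their log2 fold changes were -0.58 (SE 0.387) and -0.50 (SE 0.418). Without female replicate 2 these were -0.93 and -0.76, and they were nearest to 0 for Lama4 without female replicate 1 (-0.34) and for Lama5 without female replicate 3 (-0.16). Lamb3, a chain of epithelial laminin, had 1.26, 2.02 and 1.02 CPM in females and 1.69, 1.60 and 1.58 CPM in males, and here replicate 2 was the highest female. Antisense genes overlap 5.13% of the exons of Lama4 (Fam229b, 1335 counts against 1719), 0.742% of those of Lama5 (Adrm1, 15740 against 729) and 1.45% of those of Lamb3 (G0s2, 5597 against 477). Lama2, known from muscle, and Lama3, known from skin, stood at 0.454 to 1.33 CPM and 0.169 to 0.511 CPM, and Lama3 did not overlap between the sexes, at 8 to 27 counts a library.

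Libraries of one sex thus differed more in the laminins than in the β2 chains. The median SD of log2 CPM within a sex (with 0.1 CPM added) was 0.518 in females and 0.408 in males over the laminins, 0.0892 and 0.156 over the β2 family, and 0.218 and 0.240 over all genes tested. Counts a library were 8 to 27 for Lama3, 825 to 2257 for Lamc1, 787 to 1629 for Itgax and 17645 to 23405 for Itgb2. The part of counting error in this contrast was not tested. Female replicate 2 and male replicate 2 were the lowest of their sex for Lamc1, Lamb1, Lamb2, Lama4, Lama5, Lama2 and Lama1. In the same 2 libraries, the sum of 8 stromal markers, such as Cxcl12 and Lepr, was 0.683 and 0.565 of its mean over the 6 libraries, and that of the megakaryocyte markers 0.476 and 0.353. The endothelial sum was 1.01 of its mean in female replicate 2, still the lowest female, and 0.597 in male replicate 2, the lowest male. Stromal sums were 1352 to 2857 CPM in females and 1118 to 2204 CPM in males, and DESeq2 called 1 stromal marker, Adipoq, lower in males. The part of these cells in the laminin levels was not tested.

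**Figure D4:**
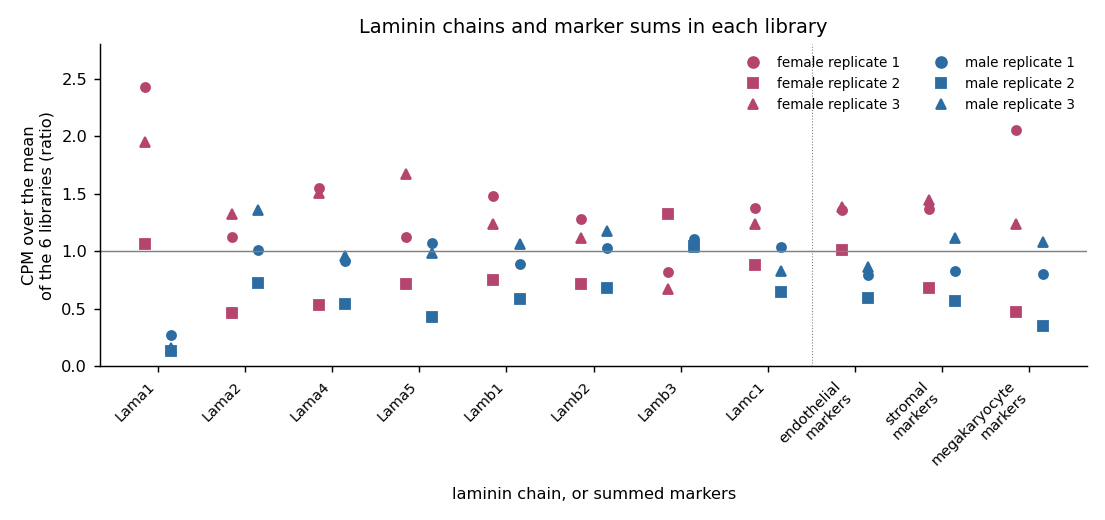
CPM of 8 laminin chains and of 3 summed marker lists in each of the 6 libraries, divided by the mean of the 6 (y axis, ratio with 1 as the mean), with colours for the sex and symbols for replicates 1, 2 and 3. Squares, which mark replicate 2, are lowest of their sex for most chains and for the marker sums, and the 3 male libraries of Lama1 lie between 0.136 and 0.270.

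Beside Lamc1, Lamb1, Lama4 and Lama5 stood in similar proportions in both sexes, and Lamb2 was higher in males. The ratios of Lamb1, Lama4 and Lama5 to Lamc1 per kilobase were 0.590 ± 0.0699, 0.148 ± 0.0495 and 0.0885 ± 0.0278 in females and 0.616 ± 0.140, 0.144 ± 0.0258 and 0.0854 ± 0.0241 in males (SD, n = 3 each), and the sexes overlapped in each. Lamb2 over Lamc1 was 0.428 ± 0.0299 in females and 0.561 ± 0.112 in males (SD, n = 3 each), without overlap. In all, 17 chain ratios were computed. An exact permutation test of each log2 ratio, two-sided, gave p = 0.1 for the 7 ratios without overlap, the smallest that 3 against 3 allows (0.243 with Benjamini-Hochberg adjustment over the 17), and 0.2 to 1 for the other 10.

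Proteins that tie integrins to the cytoskeleton showed no common direction. Of 30 genes of the adhesion complex, all were tested and 0 were called in edgeR without a replicate block or in DESeq2, with 2 higher (5.03% of all genes) and 3 lower (4.76% of all genes) in males at an unadjusted p under 0.05 in edgeR and a median log2 fold change of -0.06. Those with the smallest p were the kinases Src and Ptk2 (focal adhesion kinase) and the adaptor Zyx. Src had 12.2, 15.5 and 15.04 CPM in females and 8.998, 7.65 and 11.1 CPM in males, a log2 fold change of -0.62 (SE 0.188, adjusted p = 0.308 in edgeR). Ptk2 had 16.7, 18.1 and 22.5 CPM in females and 10.6, 11.3 and 15.3 CPM in males, a log2 fold change of -0.62 (SE 0.187, adjusted p = 0.308 in edgeR). Zyx lay the other way, with 181, 185 and 167 CPM in females and 225, 232 and 217 CPM in males, a log2 fold change of 0.34 (SE 0.112, adjusted p = 0.351 in edgeR).

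Of the basement membrane partners and integrin ligands, most had lower values in males, the exceptions being Spp1 and Cdh1 (E-cadherin), the latter with a log2 fold change of 0.24 (SE 0.359). Of 22 listed genes, 21 were tested (not Madcam1), and edgeR called 0 of them at an adjusted p under 0.05, with 1 higher (5.03% of all genes) and 9 lower (4.76% of all genes) at an unadjusted p under 0.05. The median log2 fold change was -0.47, and 19 of the 21 lay below 0 (50.2% of all genes). Beside this, the sum of the endothelial markers was 407 ± 67.3 CPM in females and 244 ± 44.9 CPM in males (SD, n = 3 each), without overlap, and its part in these genes was not tested. DESeq2 called 1 ligand gene higher (1.31% of all genes), Spp1, and 5 lower (0.771% of all genes), Bcam, Col4a1, Col4a2, Nid1 and Nid2, the last 4 being core proteins of the basement membrane. Bcam, a receptor for laminin α5, had 2.59, 2.21 and 3.60 CPM in females and 1.25, 0.812 and 1.08 CPM in males, a log2 fold change of -1.42 (SE 0.328, adjusted p = 0.177 in edgeR). Spp1, which encodes osteopontin, a bone matrix ligand of αVβ3, had 46.3, 20.7 and 35.2 CPM in females and 95.1, 52.4 and 93.0 CPM in males. For Spp1 the log2 fold change was 1.23 (SE 0.312, adjusted p = 0.244 in edgeR). Col4a2, a collagen chain of basement membranes, had 59.8, 33.8 and 55.2 CPM in females and 27.4, 16.3 and 32.0 CPM in males, a log2 fold change of -0.98 (SE 0.270, adjusted p = 0.269 in edgeR). None of these 3 genes overlapped between the sexes, and in Spp1 and Col4a2 replicate 2 was again the lowest library of its sex.

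Promoter sequences were compared because the neighbours Itgam and Itgax lay in opposite directions. From RefSeq's table for GRCm38.p6, with 250 bases before and 50 bases after each start, 25 promoters of 22 members were used. No promoter was used for Itga6, Itga7, Itgad, Itgae, Itgal, Itgb2, Itgb3, Itgb4, Lama1, Lama3, Lama4, Lamc1 and Lamc3. For Lama3 this does not show that the table held none. GAGGAA, the core letters bound by the myeloid factor PU.1, was found on either strand in 13 of the 25 (52%), against 28.3% of all 32851 promoters of this length. Of the leukocyte chains with a promoter, Itgam and Itgb7 held it and Itga4 and Itgax did not. The other promoters with it were those of laminins and of integrins outside the leukocyte families. GGGCGG, the core letters of a GC box, was found on either strand in 12 (48%), against 35.7%, and TATAAA in 0, against 13.6%. The Itgam promoter held GAGGAA 3 times (0.685% of all promoters held it 3 or more times) and GGGCGG 1 time, with no overlap between them. The Itgax promoter held none of the 3 motifs, which says only that these letters were not in this window. Both lie on the plus strand, at chr7:128062390-128062689 for Itgam and chr7:128129300-128129599 for Itgax on GRCm38.p6, and are printed 5′ to 3′ with GAGGAA or its complement TTCCTC in capitals.
Itgam: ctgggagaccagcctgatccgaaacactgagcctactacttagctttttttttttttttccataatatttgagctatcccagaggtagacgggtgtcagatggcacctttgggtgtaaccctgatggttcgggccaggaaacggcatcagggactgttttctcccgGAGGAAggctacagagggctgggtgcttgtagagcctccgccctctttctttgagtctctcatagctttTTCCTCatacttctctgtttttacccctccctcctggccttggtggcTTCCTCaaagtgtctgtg
Itgax: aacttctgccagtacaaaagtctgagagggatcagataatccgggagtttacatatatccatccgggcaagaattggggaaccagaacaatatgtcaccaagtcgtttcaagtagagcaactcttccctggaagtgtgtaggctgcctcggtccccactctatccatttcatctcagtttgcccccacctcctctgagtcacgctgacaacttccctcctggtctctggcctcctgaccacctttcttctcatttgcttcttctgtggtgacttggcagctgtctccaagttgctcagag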

How the data were processed

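RNA-seq libraries of 3 female and 3 male samples were used. The authors deposited whole-number counts per gene and library, not normalized and not pooled. Per the submitters' processing notes, TopHat2 2.0.11, featureCounts, mm9 and NCBIM37 were named, whereas the methods name STAR, GRCm39 and featureCounts. Sources also differ on read length, library kit and instrument. The annotation release and strand setting are not given in the sources used here, which bears on overlapping genes and near-identical copies. Of 37991 identifiers, 31073 (96.2% of the counts) matched GENCODE M39 on GRCm39, including all members.

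Counts were tested with edgeR 4.0.16 in R 4.3.3 (TMM scaling, the default filter by sex, robust quasi-likelihood fits, Benjamini-Hochberg adjustment over all 19480 genes tested, calls under 0.05). Standard errors are the log2 fold change over the square root of F. DESeq2 1.42.0 served as an alternative, beside other scalings and filters, a replicate block, the 7 genes over 1% of a library left out, and leaving out 1 library at a time. Levels per length used the union of exons. Values in each library are given for members with a mean of at least 1 CPM or an unadjusted p under 0.05, and of the other gene lists for the 3 genes of smallest p. Members, gene lists and marker lists (endothelial, neutrophil, monocyte and macrophage, B cell, T and NK cell, erythroid, megakaryocyte and stromal) were chosen with earlier results of these data known. Comparison of protein sequences was not run.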

Additional observations from a re-analysis of the deposited data

How the results depend on the processing

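The absence of members called higher in males held under every alternative run. Members called lower, 0 in the reported test, were 1 without a filter on low counts (Lama1, adjusted p = 0.00787 in edgeR), 2 with DESeq2 (Itgad and Lama1), and 0 to 1 with each library left out, the 1 being Lama1 without male replicate 3. Calls over all genes rose as well, from 8 of 19480 to 98 of 27044 without the filter, 359 of 17252 with DESeq2 and 96 of 19925 without male replicate 3. The ligand genes called went from 0 to 1 higher and 5 lower with DESeq2. The cause of these differences was not tested. Lama1 was not among the genes tested when at least 10 counts were required in every library, since male replicates 2 and 3 had 8 and 9. The members' median log2 fold change was between -0.37 and -0.19 with each library left out, and near -0.28 under the other scalings (-0.29 with total counts alone).

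Of the 27 members with values in each library, 17 kept their direction under each of the 13 alternatives in which they were tested (12 for Lama1), among them the 10 with an unadjusted p under 0.05. Direction turned in the other 10 when a library was left out, with ranges of -0.019 to 0.12 for Itgal, -0.088 to 0.24 for Itga4, -0.52 to 0.051 for Itgb3, -0.20 to 0.036 for Itgav, -0.23 to 0.040 for Itga5, -0.32 to 0.088 for Lamb2, -0.70 to 0.26 for Itgb4, -0.14 to 0.19 for Itga11, -0.013 to 0.51 for Lamb3 and -0.54 to 0.12 for Itga8. These genes carry no direction here. The number of members at an unadjusted p under 0.05 was 1 higher throughout and 6 to 12 lower, alternatives of a count that was chosen after seeing the data. The shares of all genes at this threshold under the alternatives are not given here, so these counts cannot be set against them.

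Libraries are numbered 1 to 3 within each sex, but the labels do not say that a number marks a shared litter or day. The codes in their titles follow another numbering, in which only replicate 3 of each sex shares a number. Deviations of same-numbered libraries from the mean of their sex had correlations across genes of 0.194, 0.0402 and 0.298, and male replicate 2 correlated best with female replicate 1 (0.131), so the numbers were not taken as pairs. With the replicate number as a block, edgeR called 2 members lower (Itgad and Lama1), 1 adhesion complex gene lower (Ptk2, adjusted p = 0.0397), and 1 ligand gene higher and 6 lower, and over all genes 428 in place of 8. Depth limits the 8 members with means under 1 CPM and the male values of Lama1.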
